A study of Mus musculus with 38 samples.

Results

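The genes Runx1, Runx2 and Runx3, which encode the RUNX transcription factors, and Cbfb, which encodes their binding partner, were examined as targets of the factors profiled by ChIP-seq in early T-lineage cells. They are 4 of 21911 protein-coding genes of the annotation. Every peak whose centre lay in a member's gene body or within 100 kb to either side was taken from all 17 peak lists, which gave 734 of 359759 peaks. The window of Runx1 held 196 of them, that of Runx2 140, that of Runx3 265 and that of Cbfb 133. Peaks were assigned by position alone, so a peak in a window is not shown to act on that gene.

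RUNX proteins bind DNA through their Runt domain at a short recognition sequence, and CBFB, which does not touch the DNA itself, binds the Runt domain and strengthens its hold. The 3 RUNX proteins share this partner and recognise the same sequence. RUNX1 is known for its role in blood stem cells and early lymphoid progenitors, RUNX2 for bone formation, and RUNX3 for cytotoxic T cells and other lymphocytes. Each RUNX gene is transcribed from a distal promoter, P1, and from a second promoter, P2, that lies inside the gene. Med12 is a subunit of Mediator, which links enhancers to RNA polymerase II, p300 is an acetyltransferase found at active enhancers, CTCF is the DNA-binding factor of chromatin loop boundaries, and Notch1-IC is the part of the Notch1 receptor that enters the nucleus when the receptor is cut.

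The cells were Cas9-LP, lymphoid progenitor (LP) lines from fetal liver of mice that lacked the B-cell factor Ebf1 and carried Cas9 in the Rosa26 locus, and all groups shared this genotype. They were grown with SCF, Flt3L and IL-7, on OP9 stroma for LP cells, or on OP9-DLL4 stroma, which presents a Notch ligand, for Phase 1 and the later Phase 2 cells. Without sgRNA, RUNX1, CTCF, Med12 and p300 were each profiled in LP and Phase 1, and Notch1-IC additionally in Phase 2. With a retroviral sgRNA that carried an hNGFR marker, RUNX1 was profiled in LP with sgCont or sgCTCF and in Phase 1 with sgCont or sgMed12, and Med12 in Phase 1 with sgCont or sgCbfb. These ChIP groups and 2 groups of inputs comprised 38 samples, 2 in each of 19 groups. The peak lists hold no transcript levels, so neither the cell type nor the loss of the targeted genes, Cbfb among them, could be checked here.

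Each list held only the peaks that were reproducible between its 2 samples, so no value per sample was used and no spread between samples stands beside any value here. Differences between lists were therefore described and not tested. Shares are given with 95% Wilson intervals, which cover counting error only and treat the peaks as independent, although peaks of a window are neighbours on the same chromosome and not replicates of a culture. Beside each share stands the same share over the whole list. The peak score is the authors' normalized value on a scale that the files do not state, so scores are compared only within a list, by rank or by the distance from the top of the list in percent. The study's methods give an approximate number of reads per sample, but the reads behind each list are not in the files used here. The lists of sgRNA-treated cells were shorter, with 874 to 2094 peaks for RUNX1 against 31995 in LP and 38399 in Phase 1 without sgRNA, and the study describes such ChIPs as made from few cells and noisier. A missing peak can therefore mean less depth or enrichment as well as less binding.

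Runx1 lies on the minus strand of chromosome 16 (mm10 chr16:92601466-92826149), with P2 128.8 kb downstream of P1. Runx2 lies on the minus strand at chr17:44495987-44814797, with P2 at +78.1 kb. Runx3 lies on the plus strand at chr4:135120652-135177990, with P2 at +31.8 kb, and Cbfb on the plus strand at chr8:105170674-105217989. Distances are given in kb from the first start of the gene along its direction of transcription, with negative values upstream. The windows of Runx1, Runx2 and Runx3 each held 1 other protein-coding gene (Clic6, Supt3 and Clic4), whereas that of Cbfb held 13.

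The first set of sequences shows what the P1 promoters of the RUNX genes had in common. The longest run shared by the RefSeq promoters of all 3 P1 starts was 18 bases, set in capitals below within 30 bases of each promoter on the strand of the gene. It contains the RUNX recognition string 2 times, both as TGTGGTT on the opposite strand, at bases 8 to 14 and 16 to 22 of each line.
Runx1 P1: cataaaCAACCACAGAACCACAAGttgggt
Runx2 P1: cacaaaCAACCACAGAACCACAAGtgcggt
Runx3 P1: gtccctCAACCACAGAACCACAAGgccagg
The lines lie at chr16:92826025-92826054, chr17:44814583-44814612 and chr4:135120503-135120532. In Runx1 the shared run lay in the 5' untranslated region, 26 to 43 bases after the RefSeq start, and in Runx2 likewise 21 to 38 bases after it. In Runx3 it lay upstream, 119 to 136 bases before the start. Over the mm10 genome the run occurred at 3 places, these promoters, of which 2 lay inside an LP RUNX1 peak and 3 inside a Phase 1 RUNX1 peak. Of 32851 RefSeq promoter windows, 2217 (6.75%) held a RUNX string (TGTGGTT or TGCGGTT on either strand), and 18 (0.0548%) held 2 of them within 20 bases. The run was searched for after the RUNX1 peaks at P1 had been seen, and it is given as a description of the sequence.

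The run lay close to the centre of the RUNX1 peaks. At Runx1 it was 4 bases from the centre of the LP peak and 3 bases from that of the Phase 1 peak. At Runx3 these distances were 39 and 37 bases, and at Runx2 the single peak, in Phase 1, was centred 88 bases away. The P2 promoters of Runx1 and Runx3 and the promoter of Cbfb held no RUNX string in their RefSeq windows. A missing string says only that these letters were not in the window.

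The next set shows 200 bases around peak centres that recur below, on the plus strand of the genome. Capitals mark RUNX strings and the string GTGGGAA, the recognition string of RBPJ, through which Notch1-IC is held on DNA. The line for Cbfb is the 250 bases before its RefSeq start and has no capitals because it held neither string.
Runx1 +3.9 kb: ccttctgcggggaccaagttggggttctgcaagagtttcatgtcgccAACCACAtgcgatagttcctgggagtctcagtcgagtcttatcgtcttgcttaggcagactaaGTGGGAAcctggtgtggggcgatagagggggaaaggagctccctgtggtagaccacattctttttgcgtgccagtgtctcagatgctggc
Runx1 +24.4 kb: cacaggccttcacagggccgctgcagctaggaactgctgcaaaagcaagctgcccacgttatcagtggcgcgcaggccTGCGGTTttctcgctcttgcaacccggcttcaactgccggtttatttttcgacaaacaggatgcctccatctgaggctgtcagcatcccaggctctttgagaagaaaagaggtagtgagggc
Runx3 +128.0 kb: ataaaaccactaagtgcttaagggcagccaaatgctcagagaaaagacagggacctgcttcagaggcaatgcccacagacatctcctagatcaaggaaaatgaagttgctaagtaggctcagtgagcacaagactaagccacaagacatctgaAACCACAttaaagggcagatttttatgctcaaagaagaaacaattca
Runx3 -40.5 kb: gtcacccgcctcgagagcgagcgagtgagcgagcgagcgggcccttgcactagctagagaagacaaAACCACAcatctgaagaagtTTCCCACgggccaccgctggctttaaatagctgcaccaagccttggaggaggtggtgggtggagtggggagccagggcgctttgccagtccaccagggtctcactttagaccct
Runx3 +72.3 kb: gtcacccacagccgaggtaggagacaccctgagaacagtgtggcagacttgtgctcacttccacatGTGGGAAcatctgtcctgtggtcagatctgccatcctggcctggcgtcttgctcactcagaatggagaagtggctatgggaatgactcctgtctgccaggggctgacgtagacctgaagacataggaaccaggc
Cbfb start: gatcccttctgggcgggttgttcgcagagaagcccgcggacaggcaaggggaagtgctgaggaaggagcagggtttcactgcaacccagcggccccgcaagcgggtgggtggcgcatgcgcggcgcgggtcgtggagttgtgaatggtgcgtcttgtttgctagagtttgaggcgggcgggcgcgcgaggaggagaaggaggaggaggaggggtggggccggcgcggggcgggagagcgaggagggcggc
They lie at chr16:92822122-92822321 and chr16:92801683-92801882 (introns of Runx1), at chr4:135248602-135248801 (an intron of Clic4), at chr4:135080012-135080211 and chr4:135192896-135193095 (intergenic, before and after Runx3) and at chr8:105170424-105170673. The Runx1 +3.9 kb and Runx3 -40.5 kb lines each held 1 RUNX and 1 RBPJ string. At Runx3 -40.5 kb these lay at bases 67 to 73 and 87 to 93. The Runx1 +24.4 kb and Runx3 +128.0 kb lines held 1 RUNX string, and the Runx3 +72.3 kb line 1 RBPJ string.

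At their own starts, the members differed in how high their RUNX1 peaks ranked. Runx3 P1 carried a RUNX1 peak that was 74th of 31995 in LP, with a score of 443.2, and 25th of 38399 in Phase 1, with a score of 638.0. Runx1 P1 carried RUNX1 peaks that were 427th in LP (score 307.8) and 471st in Phase 1 (score 341.4). The peak at the Cbfb start scored 125.3 in LP and 160.4 in Phase 1, where it was 9.58% from the top. Runx2 P1 had no RUNX1 peak in LP, and its Phase 1 peak, with a score of 27.0, was 27179th, 70.8% from the top. Thus the same 18 bases lay under RUNX1 peaks near the top of the Phase 1 list at Runx3 and Runx1 and under one in its lower part at Runx2.

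The coactivators were found at each of these starts in both stages. Med12 scored 241.2 in LP and 239.9 in Phase 1 at Runx3 P1, 196.2 and 156.8 at Runx1 P1, 132.1 and 126.7 at the Cbfb start, and 18.3 and 21.8 at Runx2 P1. For p300 the scores were 339.0 and 321.4 at Runx3 P1, 352.6 and 301.2 at Runx1 P1, 167.4 and 194.9 at Cbfb, and 20.3 and 31.9 at Runx2 P1. The order of the 4 starts was the same in both Med12 lists and in the LP and Phase 1 RUNX1 lists, with Runx2 P1 lowest. No CTCF peak lay within 1 kb of any of them.

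The P2 promoters carried lower peaks than P1 in the RUNX1 lists, except at Runx2. Within 1 kb of Runx1 P2 the highest RUNX1 peak scored 84.0 in LP and 88.5 in Phase 1, 27.7% and 24.9% from the top, and Med12 was found only in Phase 1, with a score of 49.5. At Runx3 P2 the RUNX1 scores were 65.2 and 50.9, those of Med12 51.1 and 32.0, and those of p300 67.3 and 44.2. Near Runx2 P2 RUNX1 scored 31.0 in LP and 32.1 in Phase 1, and p300 47.0 and 36.2, while Med12 was found only in LP, with a score of 34.4. Runx2 P2 was also the only start with a CTCF peak, which scored 87.6 in LP and 113.2 in Phase 1. Further peaks lay over a later start of Runx2 near +79.3 kb, with RUNX1 scores of 33.0 in LP and 27.6 in Phase 1 and a p300 score of 38.8 in LP.

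**Figure D1:**
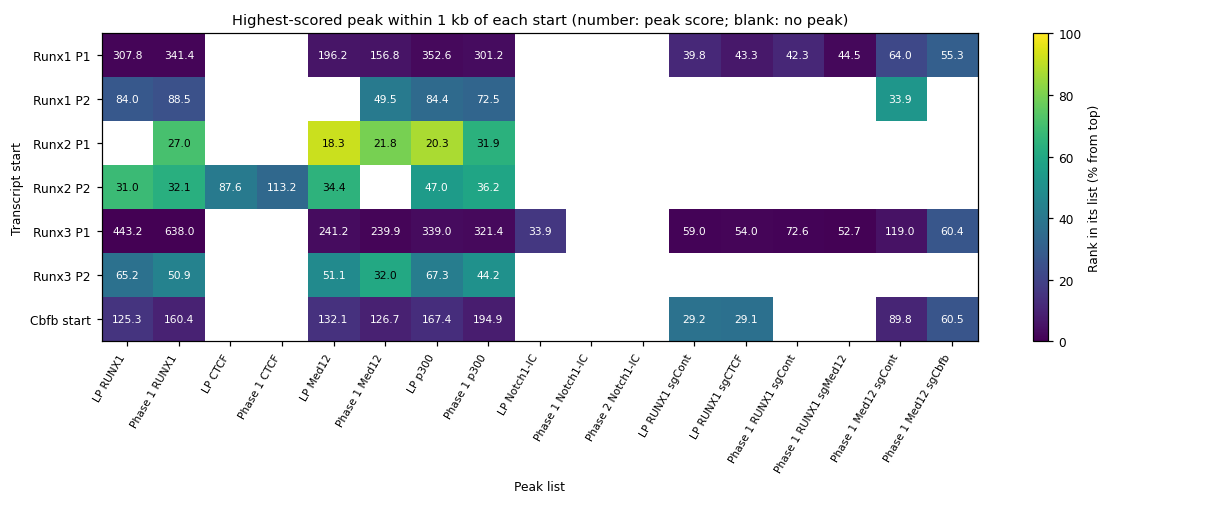
Highest-scored peak within 1 kb of each transcript start of the members (rows) in each of the 17 peak lists (columns). Numbers are peak scores, colour gives the rank in the list as percent from the top (dark is near the top), and blank cells have no peak; Runx3 P1 has the darkest RUNX1 cells, and Runx2 P1 has no peak in any sgRNA list.

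Across the Runx1 window, RUNX1 peaks ran along the long first intron and upstream of the gene. There were 23 in LP and 25 in Phase 1, of which 12 in each list lay between P1 and P2, and 21 were found at both stages. After the P1 peak, the highest in Phase 1 were those at +3.9 kb (score 250.0) and +24.4 kb (score 237.2), shown in the sequences above. The +24.4 kb peak had Med12 and p300 at both stages, and p300 reached its highest score of the window there, 446.5 in LP and 608.8 in Phase 1, as did Med12 in Phase 1 with 288.5. At +3.9 kb the RUNX1 peak was also present in LP (score 115.7), whereas Med12 (218.7) and p300 (285.6) were found only in Phase 1. The highest LP Med12 peak of the window, at +39.0 kb, scored 198.3.

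Stage-specific RUNX1 peaks, meaning those without an overlap of at least 1 bp with RUNX1 peaks of the other stage, were few at Runx1. The 2 LP-specific ones lay at -58.0 kb (score 74.0) and +101.4 kb (score 43.1), and both overlapped Med12 and p300 peaks of both stages. Of the 4 Phase 1-specific ones, the highest, at +184.9 kb in an intron, scored 100.5 and had Phase 1 Med12 (82.2) and p300 (138.6). The other 3 scored 16.4 to 34.9. Highest among the CTCF peaks was that at +127.3 kb, upstream of P2, with 256.9 in LP and 230.2 in Phase 1.

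At Runx2 there were 14 RUNX1 peaks in LP and 19 in Phase 1, 12 of them shared. The 2 LP-specific peaks were 14.3% of those in LP, against 16.8% of the whole list, and the 7 Phase 1-specific ones 36.8% of those in Phase 1, against 30.7%. The highest lay in an intron at +160.1 kb and scored 110.3 in LP and 159.2 in Phase 1. This position also carried the highest Med12 and p300 peaks of the window, 140.1 and 254.6 in LP and 224.6 and 289.1 in Phase 1. The second Phase 1 peak, at +381.8 kb beyond the 3' end of Runx2, stood 9.89% from the top in Phase 1 (score 157.7) and 26.6% in LP (score 86.8).

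All 7 Phase 1-specific RUNX1 peaks at Runx2 overlapped Phase 1 Med12 and p300 peaks. They lay at -79.0, -5.2, +0.1, +31.5, +86.2, +104.8 and +208.3 kb and scored 20.7 to 76.2. An LP Med12 peak overlapped 1 of them, and an LP p300 peak 2. Over the whole list 68.1% of Phase 1-specific RUNX1 peaks overlapped both. The LP-specific peaks lay at +150.6 kb (score 30.0) and -69.6 kb (score 18.9). The highest CTCF peak, at +358.9 kb in intergenic sequence, scored 150.1 in LP and 164.7 in Phase 1.

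Runx3 had the densest and highest-ranked binding of the 4 windows. Its window of 257.3 kb held 26 LP and 27 Phase 1 peaks of RUNX1, 21 of them shared. Besides P1, shared peaks that lay less than 5% from the top of at least 1 list were found upstream at -50.6, -40.1 and -22.0 kb, in the first intron at +10.7 kb, and downstream at +85.8 and +152.3 kb. The last lies at the promoter of the neighbour Clic4, a chloride channel family gene. It was the highest RUNX1 peak of the window in LP, 23rd in the list (score 531.9), and was 33rd in Phase 1 (score 597.1). It also held the highest LP Med12 peak, with a score of 393.0.

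The position at +85.8 kb, beyond the 3' end of Runx3, combined RUNX1 with CTCF. CTCF scored 372.0 in LP and 425.1 in Phase 1 there, 315th and 495th in those lists, and p300 scored 769.9 and 898.5, 101st and 61st. These were the highest CTCF and p300 peaks of the window at both stages, and the Phase 1 Med12 peak there, with 267.0, was also the highest. RUNX1 scored 191.8 and 239.6.

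The 5 LP-specific RUNX1 peaks at Runx3 scored 16.4 to 36.9. LP Med12 and p300 were at 4 of them, against 55.9% of LP-specific peaks in the whole list. The highest of the 5 lay in a coding exon of Clic4 at +105.5 kb. Of the 6 Phase 1-specific ones, the highest, at -35.0 kb, scored 60.9 and had Phase 1 Med12, p300 and CTCF. None of these was at 3 of the 6, against 12.6% of Phase 1-specific peaks in the whole list. At Runx3 the Phase 1-specific RUNX1 peaks had Med12 and p300 together at 1 of 6, and those of Runx2 at 7 of 7, against 68.1% of the list. Groups of this size were only counted.

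Cbfb differed from the RUNX genes in that its RUNX1 peaks lay around other genes. Of 16 peaks in each stage, 1 lay at the Cbfb start, 1 upstream at about -49.5 kb, none in the gene body, and 14 downstream of the gene. The nearest protein-coding start was that of another gene for 15 of 16, and 9 of 16 were annotated as promoter peaks by HOMER. The highest, at the start of 4931428F04Rik at +118.9 kb, scored 152.7 in LP. In Phase 1 the highest was at the Cbfb start, with 160.4.

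Stage-specific RUNX1 peaks of the Cbfb window were 3 in each list. The highest LP-specific one lay in a coding exon of Tradd (score 52.0), an adaptor of tumour necrosis factor receptor signalling. The highest Phase 1-specific one lay at Nol3 (score 57.3), which encodes an inhibitor of apoptosis. The highest CTCF peak lay in a coding exon of B3gnt9 at +83.6 kb, with 276.2 in LP and 311.8 in Phase 1. The highest Med12 peak was at +118.8 kb in LP (153.9) and at the Cbfb start in Phase 1 (126.7), and p300 was highest at the Cbfb start in both stages.

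**Figure D2:**
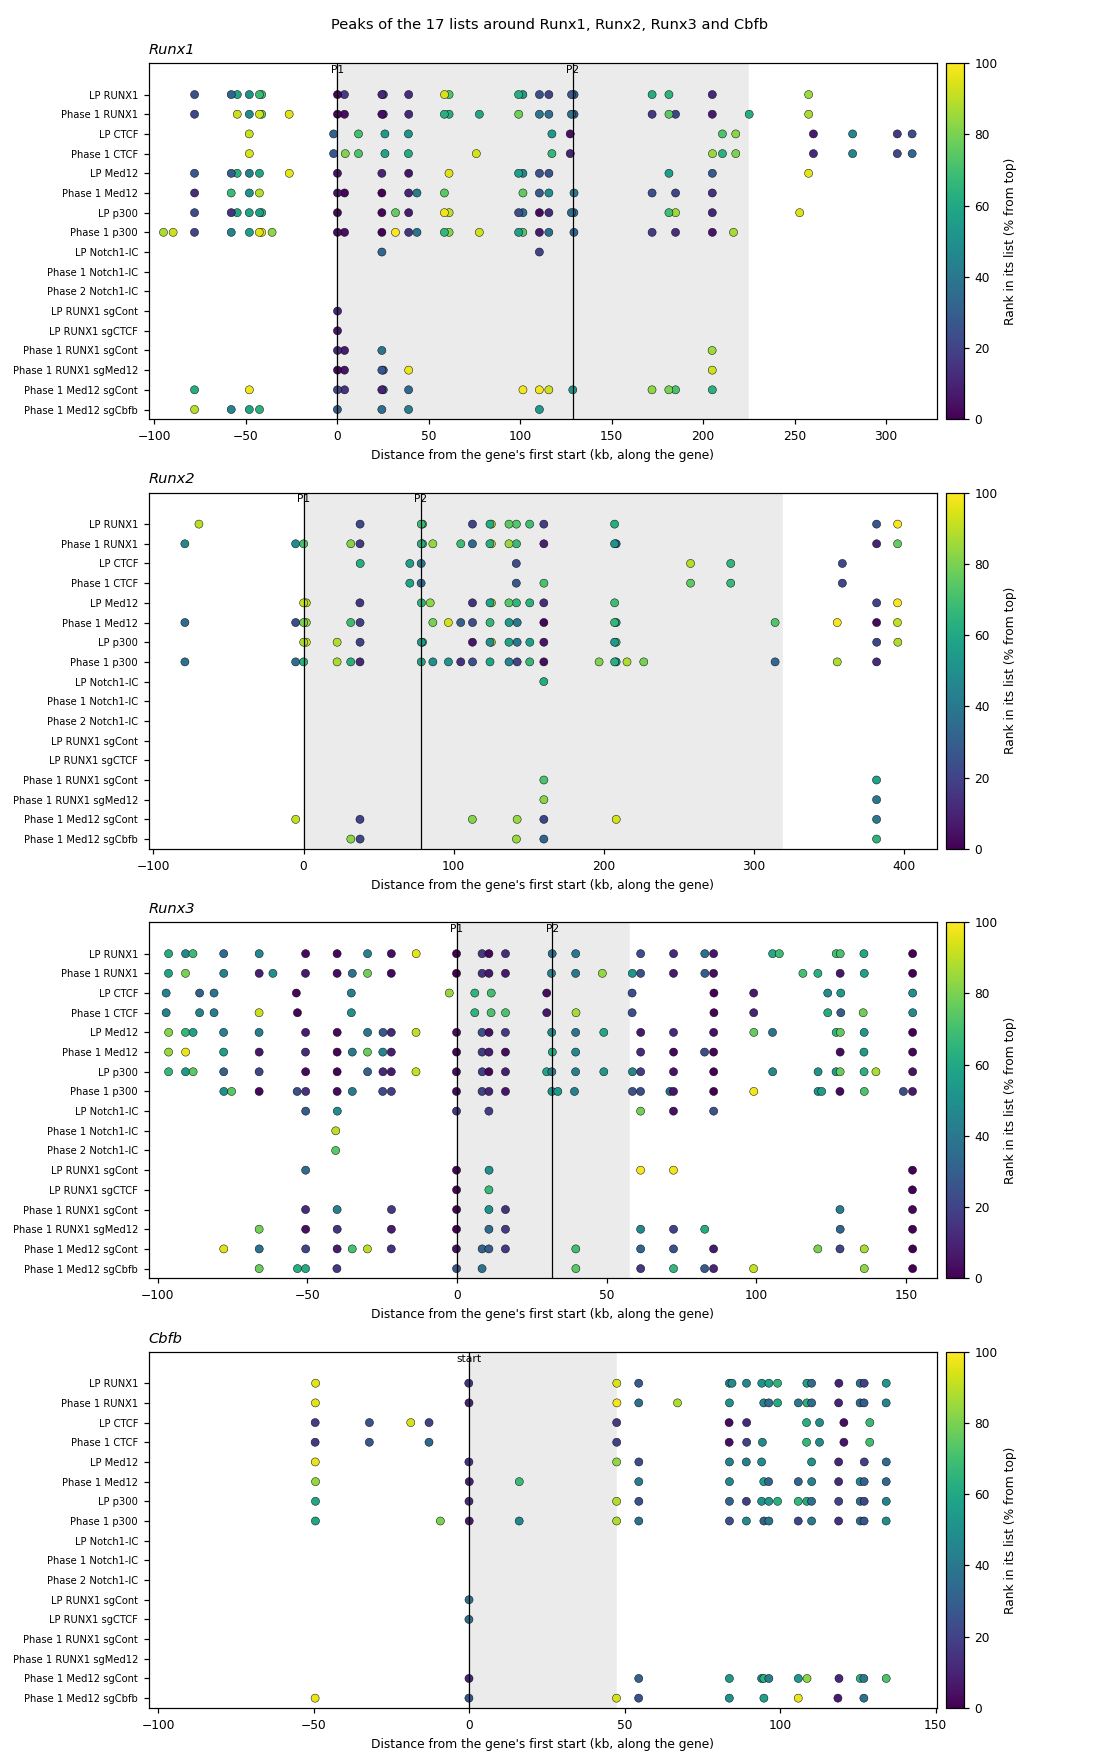
Positions of the 734 peaks by list (rows) and distance from the first start of each gene in kb (horizontal axis), with the gene body shaded, starts marked by lines and colour giving the rank within the list as percent from the top. Runx3 has columns of peaks that run through many lists, P1 and the Clic4 promoter in 13 and 14 of them, 12 RUNX1 peaks of Runx1 per stage lie between P1 and P2, and most RUNX1 peaks of Cbfb lie beyond the gene.

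When overlapping peaks of all lists were merged, the windows held 162 sites, 48 at Runx1, 35 at Runx2, 52 at Runx3 and 27 at Cbfb. RUNX1, Med12 and p300 were together at both stages at 40 sites, of which 16 were at Runx3, 9 at Runx1, 8 at Cbfb and 7 at Runx2. At 21 sites the 3 were together in LP only, and at 17 in Phase 1 only. Runx3 had 8 LP-only and 1 Phase 1-only sites (15.4% and 1.92% of its sites) and Runx2 4 and 7 (11.4% and 20.0%). Over the genome, where the same merging gave 100129 sites, 21.3% had the 3 at both stages, 5.01% in LP only and 9.95% in Phase 1 only. A further 30 sites (18.5%) held CTCF and nothing else, against 36.3% over the genome, and 13 of these were at Runx1. Sites with peaks of at least 10 lists numbered 20 (12.3%, against 4.23% over the genome), including 11 at Runx3, where the Clic4 promoter was in 14 lists and P1 in 13.

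Relative to its length, the Runx3 window stood high among windows built in the same way around all protein-coding genes. In LP it held 10.1 RUNX1 peaks per 100 kb, 8.61 times the genome-wide density, and 99.4% of coding genes had a lower density. The values were 6.47 per 100 kb at Cbfb (89.5% of genes lower), 5.42 at Runx1 (82.6% lower) and 2.70 at Runx2 (56.5% lower). In Phase 1 they were 10.5, 6.47, 5.89 and 3.66 per 100 kb. For Med12 and p300 in LP, 99.8% of genes had a lower density than Runx3, but for CTCF 78.8% did. Neighbouring genes share windows and long genes have wide ones, so these percentages are descriptions.

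The change between LP and Phase 1 was then compared with the whole lists. Of the 79 LP RUNX1 peaks in the windows, 12 (15.2%, interval 8.91 to 24.7) were LP-specific, against 16.8% of the list. Of the 87 Phase 1 RUNX1 peaks, 20 (23.0%, interval 15.4 to 32.9) were Phase 1-specific, against 30.7%. Both intervals included the whole-list share, so with all peaks counted a different turnover of RUNX1 at these genes was not detectable. Other settings, given below, differed from this. The LP and Phase 1 lists differ in length, and the order of these shares turned when lengths were made equal. With equally many top-scored peaks from both lists, 24.1% of the LP and 21.1% of the Phase 1 peaks were specific, against 22.3% of either list. With a score of at least 30 in every list the LP-specific share was 24.6% (interval 15.8 to 36.3), above the 13.9% of the list under that minimum. Without promoter peaks the Phase 1-specific share was 24.3% (interval 15.8 to 35.5), below the 38.1% of the list. By gene, Phase 1-specific peaks were 7 of 19 at Runx2, 6 of 27 at Runx3, 4 of 25 at Runx1 and 3 of 16 at Cbfb.

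For Med12 the LP-specific share was 20 of 70 (28.6%, interval 19.3 to 40.1) against 19.5% of the list, and the Phase 1-specific share was 23 of 73 (31.5%, interval 22.0 to 42.9) against 38.2%. For p300 these were 22 of 85 (25.9%, interval 17.8 to 36.1) against 20.7%, and 31 of 94 (33.0%, interval 24.3 to 43.0) against 41.6%. All 4 intervals included the whole-list share. Here too the order turned with equal list lengths, to 40.0% LP-specific and 32.3% Phase 1-specific for Med12, against 27.4% of either list, and to 32.9% and 25.0% for p300, against 30.9%. By gene, Runx3 had 2 of 23 Phase 1 Med12 peaks specific (8.70%, interval 2.42 to 26.8), and had 11 of 30 LP p300 peaks specific (36.7%, interval 21.9 to 54.5). Runx2 had 10 of 20 Med12 and 11 of 24 p300 peaks specific to Phase 1.

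CTCF peaks were LP-specific at 3 of 46 (6.52%, interval 2.24 to 17.5), against 9.55% of the list. They were Phase 1-specific at 9 of 52 (17.3%, interval 9.38 to 29.7), against 8.35%, and this interval lay above the whole-list share. The 9 peaks were 4 at Runx3, 3 at Runx1 and 1 each at Runx2 and Cbfb. With peaks of a score of at least 30 in every list the share was 9.09% (4 of 44, interval 3.59 to 21.2), so that it rested on low-scored peaks.

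**Figure D3:**
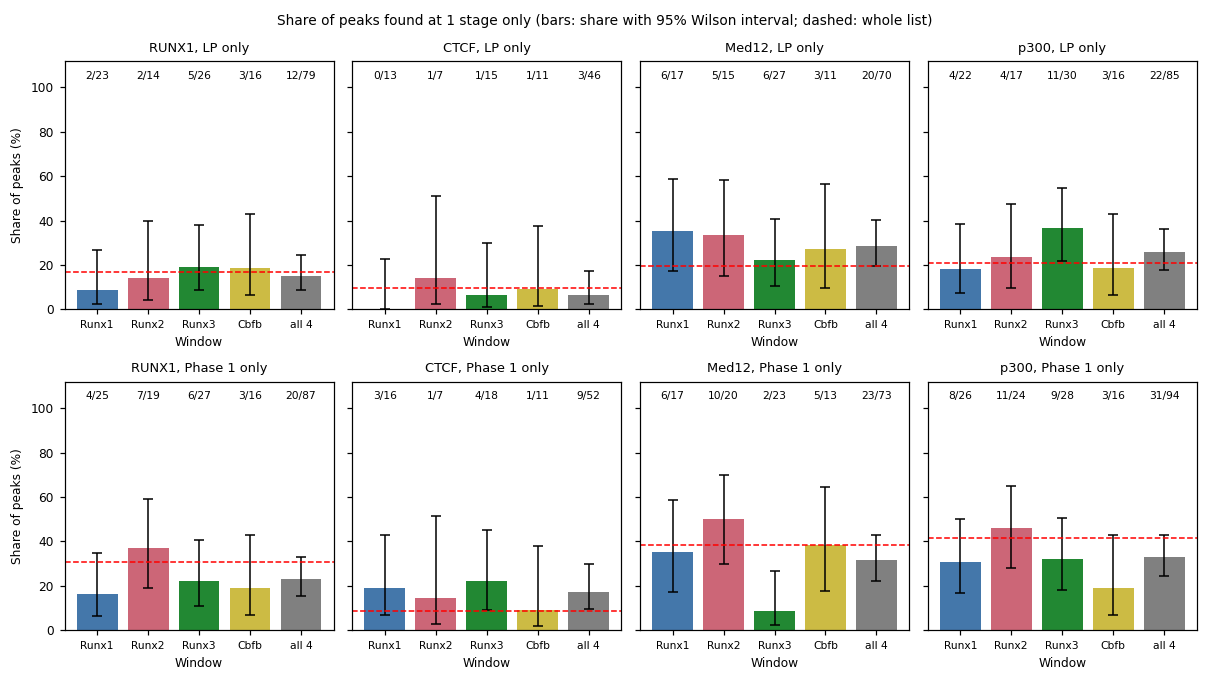
Share of RUNX1, CTCF, Med12 and p300 peaks (columns) found in LP only (top row) or Phase 1 only (bottom row), in percent, in each window and in all 4, with counts above the bars. Error bars are 95% Wilson intervals and the dashed line is the share of the whole list; for Med12 in Phase 1 the bar of Runx3 (2 of 23) lies below the line, and for CTCF in Phase 1 the bar of all 4 windows (9 of 52) lies above it.

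Some RUNX1 peaks found at both stages stood at different places in the LP and Phase 1 lists, which differ in length and give no spread between samples. Of 67 such peaks, 4 stood at least 30 percentage points nearer the top in Phase 1, against 7.05% of shared peaks in the whole list, and 3 stood at least 30 points nearer the top in LP, against 1.48%. This limit was set after the ranks had been seen. The largest difference was at Runx3 +128.1 kb (+128.0 kb in Phase 1), in an intron of Clic4, which stood at 70.8% (score 29.1, rank 22649) in LP and at 6.39% (score 192.3, rank 2455) in Phase 1. Med12 and p300 had scores of 26.9 and 26.4 there in LP and 183.6 and 309.6 in Phase 1. CTCF stood at 54.0% (score 57.8) in LP and 29.4% (score 128.7) in Phase 1.

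A second peak of this kind lay at Runx3 -66.1 kb, at 45.9% (rank 14696) in LP and 9.02% (rank 3465) in Phase 1. The others were Runx1 +172.1 kb, at 61.6% and 16.4%, where Med12 (74.9) and p300 (118.8) were found only in Phase 1, and Runx1 +58.6 kb, at 93.9% and 62.8%. Peaks nearer the top in LP were Runx3 -29.9 kb (44.4% and 78.2%), Runx3 -90.7 kb (46.6% and 79.9%) and Runx1 -54.7 kb (58.0% and 91.6%). None of the 12 shared RUNX1 peaks of Runx2 or the 13 of Cbfb differed by 30 points, and none of the 43 shared CTCF peaks did. Over the whole list 0.202% of shared CTCF peaks stood that much nearer the top in Phase 1 and 0.0536% in LP. The absence among 43 was therefore near the share of the list.

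**Figure D4:**
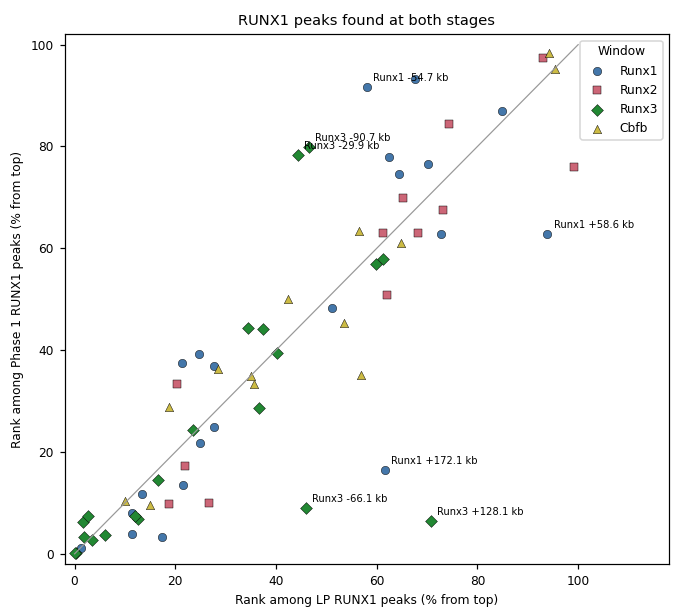
Rank of the 67 RUNX1 peaks found at both stages, as percent from the top of the LP list (horizontal) and of the Phase 1 list (vertical), by window. The line marks equal rank, and the 7 labelled peaks differ by at least 30 points; Runx3 +128.1 kb lies farthest below the line.

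RUNX1 peaks in the windows met Med12 and p300 less often than RUNX1 peaks elsewhere, in Phase 1. A Phase 1 Med12 peak overlapped 63 of 87 (72.4%, interval 62.2 to 80.7) against 86.0% of the list, and a Phase 1 p300 peak 65 of 87 (74.7%, interval 64.7 to 82.7) against 87.8%. Both intervals lay below the whole-list share. With a score of at least 30 in every list, the p300 share was 81.3% (52 of 64, interval 70.0 to 88.9), and the interval included the 88.9% of the list under that minimum, whereas the Med12 share of 76.6% (interval 64.9 to 85.3) was below 85.6%. In LP the shares were 63 of 79 for Med12 (79.7%, interval 69.6 to 87.1) against 84.7%, and 70 of 79 for p300 (88.6%, interval 79.7 to 93.9) against 90.8%, and both intervals included it. Runx1 had the lowest Med12 share in Phase 1, 14 of 25 (56.0%, interval 37.1 to 73.3), and Runx3 the highest, 22 of 27 (interval 63.3 to 91.8). Runx1 was the only gene whose Med12 interval lay below the whole-list share. For p300 the intervals of Runx1 (52.4 to 85.7) and Runx3 (51.5 to 84.1) lay below it, and those of Runx2 and Cbfb included it.

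At the 67 shared RUNX1 peaks, Med12 was present at both stages at 45, in LP only at 9, in Phase 1 only at 7 and at neither stage at 6. Over the whole list these shares were 83.4%, 5.89%, 7.47% and 3.25%. For p300 the counts were 49, 12, 2 and 4, against 88.0%, 5.85%, 3.33% and 2.82% of the whole list. Med12 was at both stages at 20 of 21 shared peaks of Runx3 and at 9 of 21 of Runx1.

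CTCF overlapped 13 of 79 LP RUNX1 peaks (16.5%, interval 9.88 to 26.1) against 23.2% of the list, and 18 of 87 Phase 1 RUNX1 peaks (20.7%, interval 13.5 to 30.4) against 15.7%. Both intervals included the whole-list share. Of the 12 LP-specific RUNX1 peaks, 1 overlapped an LP CTCF peak, against 36.8% of the 5385 LP-specific peaks of the list, and it was the peak in Tradd in the Cbfb window. At Runx3, CTCF overlapped 3 of 26 RUNX1 peaks in LP and 8 of 27 in Phase 1. A fixed CTCF consensus pattern was searched by exact match over 200 bp around peak centres. It was found at 6 of 46 LP CTCF peaks (13.0%) and 5 of 52 Phase 1 CTCF peaks (9.62%). The share was 16.6% in both whole lists. A missing match says only that this pattern was not in the window, and not that the peak lacked a CTCF motif.

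The RUNX string was found within 100 bases of the centre at 22 of 79 LP RUNX1 peaks (27.8%, interval 19.2 to 38.6) against 21.2% of the list, and at 28 of 87 Phase 1 peaks (32.2%, interval 23.3 to 42.6) against 25.4%. Both intervals included the whole-list share. Runx1 had it at 10 of 25 Phase 1 peaks, Runx3 at 8 of 27, Runx2 at 6 of 19 and Cbfb at 4 of 16. Several of the highest peaks held none, such as Runx3 +10.7 kb, Runx3 -40.1 kb, Runx2 +160.1 kb and the start of Cbfb, whose sequence is shown above. The RBPJ string was at 6 of 79 and 6 of 87 RUNX1 peaks (4.23% and 5.28% of the lists).

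Notch1-IC peaks were found at the RUNX genes and not in the Cbfb window. LP had 10 of them, although LP cells received no Notch ligand from the stroma, and 7 of these were at Runx3, at -50.6, -40.0, -0.2, +10.6, +61.4, +72.3 and +85.8 kb. The highest, at +72.3 kb with the RBPJ string shown above, scored 62.5 and was 63rd of 1585. Those of Runx1 lay at +24.4 kb (24.6) and +110.5 kb (30.7), and that of Runx2 at +160.1 kb (18.7). Over all coding genes the median density of LP Notch1-IC peaks was 0, so a window without one, as at Cbfb, was common. A lower density than at Runx3 was found for 99.7% of coding genes, than at Runx1 for 89.5% and than at Runx2 for 81.4%. Each of the 10 LP Notch1-IC peaks overlapped LP peaks of RUNX1, Med12 and p300. The same share over all 1585 peaks of the list was not computed, so this overlap is not shown to be particular to these genes. The LP list was longer than those of Phase 1 (152 peaks) and Phase 2 (352), although the study detected RUNX1 together with Notch1-IC from Phase 1 on. Whether the LP peaks mark Notch1-IC on DNA was not tested, and the densities above describe the list only.

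The Phase 1 Notch1-IC list held 152 peaks and the Phase 2 list 352, and both are shorter than the Notch1-IC peak sets that the study describes. Each had 1 peak in the windows, at the same place. It lay upstream of Runx3 at -40.5 kb in Phase 1 (score 15.5, 136th) and -40.6 kb in Phase 2 (score 17.1, 260th). These peaks overlapped each other and no peak of any other list. The sequence there, printed above, held an RBPJ string and a RUNX string 13 bases apart. The LP Notch1-IC peak at -40.0 kb lay beside it, over the RUNX1 peak at -40.1 kb, without overlap. With lists this short and scores near the lower end, the absence of Phase 1 peaks at the other positions could not be read as a loss.

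In cells with sgRNAs, Med12 was compared between sgCont and sgCbfb in Phase 1. The Cbfb window holds the gene that sgCbfb itself targets, and a local effect of the edit on peaks there was not tested. Of the 53 sgCont Med12 peaks in the windows, 26 (49.1%, interval 36.1 to 62.1) were found again with sgCbfb, against 67.8% of the list, and the interval lay below that share. In the other direction 26 of 36 sgCbfb peaks (72.2%, interval 56.0 to 84.2) were found with sgCont, against 71.4%. Found again were 6 of 15 at Runx1, 3 of 7 at Runx2, 11 of 19 at Runx3 and 6 of 12 at Cbfb. Each of these shares was below that of the list, but only the interval of Runx1 (19.8 to 64.3) lay below it. The intervals of Runx2 (15.8 to 75.0), Runx3 (36.3 to 76.9) and Cbfb (25.4 to 74.6) included it. With a score of at least 30 in every list the share was 53.3% (16 of 30, interval 36.1 to 69.8), against 75.6% of the list under that minimum.

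Promoter peaks and other peaks were found again at different rates over the whole list. Promoter peaks were 8067 of the 19053 sgCont peaks of the list, but 14 of the 53 in the windows. Of 14 sgCont promoter peaks in the windows, 9 (64.3%, interval 38.8 to 83.7) were found again, against 92.3% of promoter peaks in the list. Of the 39 other peaks, 17 (43.6%, interval 29.3 to 59.0) were, against 49.8%, and here the interval included the whole-list share. Of the 5 promoter peaks not found again, 4 lay in the Cbfb window. Phase 1 RUNX1 peaks of cells without sgRNA overlapped 49 of the 53 peaks and 94.4% of the whole list. All 26 that were found again were among these 49; over the whole list 68.0% of peaks with RUNX1 and 63.3% of those without it were found again.

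The Med12 peaks at P1 of Runx1 and Runx3 and at the Cbfb start were found with both sgRNAs. At Runx3 P1 the score was 119.0 with sgCont (926th, 4.86% from the top) and 60.4 with sgCbfb (4827th, 26.7%). At the Cbfb start it was 89.8 (10.5%) and 60.5 (26.6%), and at Runx1 P1 64.0 (21.5%) and 55.3 (30.3%). These 3 starts thus stood lower in the sgCbfb list than in the sgCont list. The share of all peaks found again that did so was not computed, so this is not shown to be particular to them. Not every peak of the windows did the same. Runx3 +61.4 kb scored below all 3 starts with sgCont (50.1) and above all 3 with sgCbfb (79.0).

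The highest sgCont peaks not found with sgCbfb at Runx3 lay at -22.0 kb (78.2), +16.2 kb (72.5) and +128.0 kb (64.4). Phase 1 RUNX1 peaks overlapped these, as they did all 19 sgCont Med12 peaks of Runx3. At Runx1 they lay at +4.0 kb (77.1), +25.1 kb (50.1) and over P2 (33.9), and at Runx2 at +112.5 kb (20.4), +142.3 kb (19.5) and -5.2 kb (17.5). Those of the Cbfb window were at +118.9 kb (86.7), +96.3 kb (41.0) and +94.0 kb (37.5). At +118.9 kb the sgCbfb list held a neighbour at +118.5 kb (109.4) that did not overlap, so a Med12 peak stood near that start with both sgRNAs.

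Of the peaks in the sgCbfb list alone, the highest at Runx3 were at +82.8 kb (58.4), -53.3 kb (29.1) and +99.1 kb (17.3). At Runx1 they were at -58.0 kb (40.2) and -42.5 kb (28.1), at Runx2 at +31.5 kb (20.3) and +141.8 kb (19.5), and at Cbfb at +118.5 kb (109.4), +47.4 kb (16.7) and -49.6 kb (15.8). The peak at Runx1 -58.0 kb coincided with the LP-specific RUNX1 peak there, which had Med12 in LP (82.6) and Phase 1 (27.4).

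For RUNX1 itself, the sgRNA lists held few peaks in the windows. In LP, sgCont had 8 peaks, 1 at Runx1, 6 at Runx3 and 1 at Cbfb, and sgCTCF had 5. Of the 8, 5 (62.5%, interval 30.6 to 86.3) were found again with sgCTCF, against 59.1% of the list, and all 5 sgCTCF peaks were found with sgCont, against 65.9% of that list. The 5 were Runx1 P1 (39.8 with sgCont and 43.3 with sgCTCF), Runx3 P1 (59.0 and 54.0), Runx3 +10.7 kb (26.4 and 22.6), the Clic4 promoter at Runx3 +152.2 kb (66.4 and 63.2) and the Cbfb start (29.2 and 29.1). The 3 not found again were Runx3 -50.6 kb (29.9), +61.4 kb (17.2) and +72.3 kb (17.3).

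In Phase 1, all 14 sgCont RUNX1 peaks in the windows were found again with sgMed12 (100%, interval 78.5 to 100), against 71.0% of the list, and the interval lay above that share. The sgMed12 list was the longer one, and with equal list lengths 12 of 14 (85.7%, interval 60.1 to 96.0) were found again, against 59.3% of the list. With a score of at least 30 the count was 6 of 7 (interval 48.7 to 97.4), against 44.9%. Of the 20 sgMed12 peaks, 14 (70.0%, interval 48.1 to 85.5) were found with sgCont, against 52.6%. At Runx3 P1 the score was 72.6 with sgCont (18th of 1550) and 52.7 with sgMed12 (13th of 2094). The other shared peaks at Runx3 were -50.6 kb (41.1 and 40.7), -40.1 kb (26.5 and 30.4), -21.9 kb (37.7 and 35.3), +10.7 kb (24.4 and 23.7), +16.2 kb (39.1 and 29.5), +128.0 kb (27.0 and 24.4) and the Clic4 promoter (66.5 and 54.6). All of these lay less than 10% from the top of the Phase 1 RUNX1 list without sgRNA.

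Runx1 shared 4 peaks between sgCont and sgMed12, at P1 (42.3 and 44.5), +3.9 kb (47.5 and 38.9), +24.4 kb (27.9 and 26.0) and +205.0 kb (17.5 and 15.5). Runx2 shared the peaks at +160.1 kb (19.8 and 16.7) and +381.7 kb (23.0 and 22.9). The 6 peaks in the sgMed12 list alone were Runx1 +25.1 kb (24.7) and +39.0 kb (15.1) and Runx3 -66.1 kb (16.9), +61.4 kb (21.6), +72.4 kb (28.5) and +82.8 kb (19.2). Neither Phase 1 list had a RUNX1 peak at the Cbfb start, where both LP lists had one. The Cbfb start was 369th of 975 with sgCont in LP, and the Phase 1 sgRNA lists held 1550 and 2094 peaks.

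**Figure D5:**
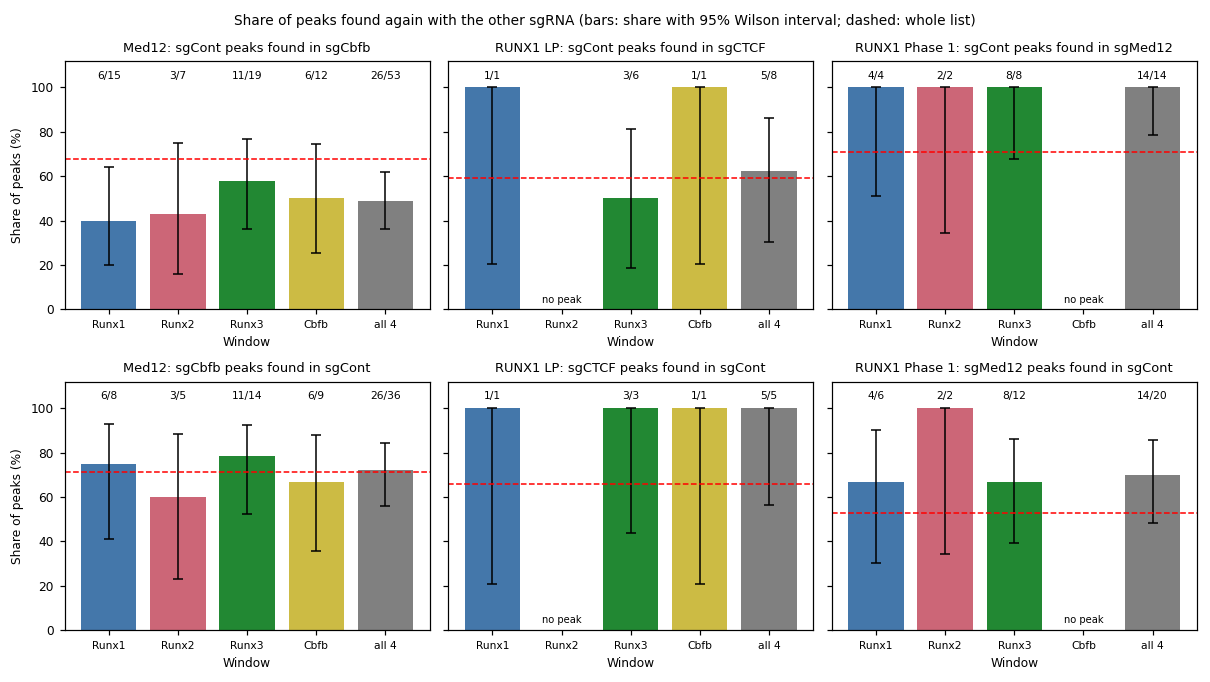
Share of peaks found again with the other sgRNA, in percent, for sgCont peaks (top row) and for sgCTCF, sgMed12 or sgCbfb peaks (bottom row), in each window and in all 4, with counts above the bars, 95% Wilson intervals and the whole-list share as a dashed line. For Med12 all bars of the sgCont peaks lie below the line (26 of 53 in all), but the intervals of Runx2, Runx3 and Cbfb include it. For RUNX1 with sgMed12 all 14 sgCont peaks are found again.

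The genes most like each member were sought by the correlation of their peak densities over the 8 lists without sgRNA and Notch1-IC. For Runx1 they were Ly6e (Pearson r = 0.988), Nmral1 (0.983) and Mfsd12 (0.979), for Runx2 Gm3646 (0.996), 4930512M02Rik (0.995) and Dyrk2 (0.994), for Runx3 B3gat3 and Rom1 (both 0.997, with the same peaks in their overlapping windows) and Iqce (0.996), and for Cbfb Tff2 (0.994), Tff1 (0.986) and Gm20721 (0.981). With 8 values that come from lists sharing most of their sites, high values were common. For Runx3, 1591 of 16553 genes had r above 0.9, and for Runx1 408 of 16556.

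Windows of the same rule around 21 genes of known RUNX partners and cofactors, a list fixed with earlier results known, served as a further description. They held 245 LP RUNX1 peaks, of which 40 (16.3%) were LP-specific, and 266 Phase 1 RUNX1 peaks, of which 61 (22.9%) were Phase 1-specific, close to the 15.2% and 23.0% of the members. Phase 1-specific peaks outnumbered LP-specific ones at 13 of the 21, were fewer at 5 and were equal at 3. Over the whole lists too, Phase 1-specific RUNX1 peaks were more numerous, 11789 (30.7%) against 5385 LP-specific ones (16.8%), and the Phase 1 list is the longer one. Tle3, which encodes a Groucho family corepressor, had 2 LP-specific and 10 Phase 1-specific peaks. Cbfa2t2, a corepressor gene of the ETO family, had 6 and 1, and Ctcf 5 and 1. Med12 had 1 and 2.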

How the data were processed

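Peak lists were deposited for 17 ChIP groups of 2 samples each; the 4 input samples had no list and are not analysed here. The authors aligned reads to mm10 with Bowtie (1.1.1, with bcl2fastq 1.8.4, per the submitters' processing notes), called peaks with HOMER and kept those reproducible between both samples by IDR. The deposited peak score is the authors' HOMER value, and no list held a score under 15. Gene bodies came from GENCODE M21 and promoters from RefSeq on GRCm38.p6. Peaks overlapped if they shared 1 bp, and motif strings were searched over 200 bp around centres. The functions, in Python 3.11.15, pandas 2.3.3, scipy 1.17.1 and pysam 0.24.0, were tested on simulated data.

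The members, windows and gene lists were chosen with earlier results of these data known. Named were peaks over starts, the highest RUNX1 peak of each stage class, the highest CTCF, Med12 and p300 peaks, all Notch1-IC and sgRNA RUNX1 peaks, up to 3 Med12 peaks missing with the other sgRNA per gene, and the 3 most alike genes among those with at least 20 peaks. Other named peaks, the rank limit of 30 points and the shared promoter run were chosen after values were seen. Alternatives were a 50 kb flank, a score minimum of 30, lists of equal length, an overlap of 0.5 of the shorter peak, the longest coding transcript, no promoter peaks, and 400 bp for motifs.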

Additional observations from a re-analysis of the deposited data

How the results depend on the processing

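The 15 shares were recomputed under 89 alternative settings, and 86 of the values stayed within the 95% Wilson interval of the reported share. With a score of at least 30 in every list, the Phase 1-specific CTCF share fell to 9.09% (4 of 44). The share of LP RUNX1 peaks found again with sgCTCF was 100% (3 of 3) with that score minimum and 25.0% (1 of 4) without promoter peaks, and counts of this size fix neither value. These alternatives leave fewer peaks; the cause of the moves was not tested. The other 13 shares stayed within the interval of the reported share under every alternative that was run. With lists of equal length the order of LP- and Phase 1-specific shares turned for RUNX1 (24.1% and 21.1%), Med12 (40.0% and 32.3%) and p300 (32.9% and 25.0%). Set against the whole list under the same setting, the LP-specific RUNX1 share was above it with a score of at least 30, and the LP-specific Med12 share with that minimum (34.5% against 18.7%), equal lengths, a 50 kb flank and the longest transcript. Without promoter peaks, the Phase 1-specific shares of RUNX1 (24.3% against 38.1%), Med12 (33.9% against 46.8%) and p300 (38.0% against 49.2%) were below it, and the Med12 share found again with sgCbfb was no longer below it (43.6% against 49.8%). No paired analysis was possible because each list joins both replicates of its group, and leaving out a replicate was impossible for the same reason. The reads behind each list are not in the files used here, which limits every statement on a missing peak, most of all for the lists with 2094 or fewer peaks.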
